A study of Physcomitrium patens with 12 samples.

Results

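The 60 genes described here were higher in antheridia of the moss Physcomitrium patens mutant line pinC#29 (the mutant, pinC in the plots) than in wild type antheridia, in every library of both groups. They were drawn from the 32926 genes of a read count table. Levels are in CPM, the counts of a gene per 1000000 counts of its library. A gene was considered when its lowest mutant antheridium library had at least 2 CPM, when its wild type organs differed by less than 3 on the log2(CPM + 1) scale, and when its mutant and wild type archegonia differed by less than 1 on that scale. These conditions left 13564 genes. They were ranked by the log2 ratio of the lowest mutant antheridium library to the highest wild type antheridium library, with 1 CPM added to each, and the first 60 were kept. The difference between the antheridia is therefore how the genes were chosen and is given as a description.

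The libraries came from mature sexual organs of the strain Gransden, taken on day 18 of sporophyte induction. Each library held the pooled RNA of 8 organs, with 3 libraries each for pinC#29 antheridia, wild type antheridia, pinC#29 archegonia and wild type archegonia. The mutant carries a PpPINC mutation and was represented by 1 line only, so that what the mutation does and what else that line carries cannot be told apart. The organs were collected on 3 occasions, the labels do not tie libraries to occasions, and the p-values rest on the variation among these 12 libraries, which may be technical in part.

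Antheridia are the male organs of mosses, a sterile jacket around the cells that become swimming sperm. Archegonia are the female organs, flask-shaped structures that each hold an egg. PIN proteins are carriers in the cell membrane that move auxin, a plant growth hormone, out of the cell, and their placement directs where auxin collects. The deposited files give genes by identifier only, and 0 of the identifiers matched a RefSeq gene table of the species, so no name, product or sequence is attached to any of the 60 genes.

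Library totals were 19038033 to 39833129 counts, and a count of 0 allows up to 3 counts, or 0.0753 to 0.158 CPM, counting error only. Mutant antheridia 2 and 3 and mutant archegonia 3 stood apart in the number of genes with a count, 19088, 20359 and 19803, against 21654 to 24802 in the other libraries. The identifier Pp3c10_24880, a candidate for PpPINC that the files do not pair with a name, had 66, 0 and 0 counts in mutant antheridia 1, 2 and 3, against 66, 39 and 165 counts in wild type antheridia. It had 3, 2 and 0 counts in mutant archegonia and 94, 38 and 56 counts in wild type archegonia. The library labelled mutant antheridia 1 thus went against its label, if the candidate is right and the mutation lowers its counts. Neither was tested, and values without that library are given below. The 30 genes most enriched in wild type archegonia over wild type antheridia, chosen on these wild type libraries, summed to 557 to 1636 CPM in the mutant antheridia, against 438 to 1395 CPM in wild type ones, with 10 or 11 of the 30 at 0 in mutant and 6 to 9 at 0 in wild type libraries. In archegonia they summed to 9986 to 16992 CPM in the mutant and 14845 to 33095 CPM in wild type. The 30 genes most enriched in wild type antheridia summed to 5233, 39554 and 15556 CPM in mutant antheridia 1, 2 and 3, against 8353 to 19411 CPM in wild type antheridia. None of the 60 genes was on these lists. The rule favours this, since it left out genes whose wild type organs differed by 3 or more on the log2(CPM + 1) scale. Fewer cells of a type and less RNA per cell cannot be told apart in such pooled organs, and the part of cell makeup in the differences was not tested.

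Together the 60 genes held 3252, 3225 and 3073 CPM in mutant antheridia 1, 2 and 3, against 1080, 1268 and 1115 CPM in wild type antheridia. Mutant archegonia held 1983, 2106 and 1202 CPM of them, and wild type archegonia 1640, 1246 and 1868 CPM. Every mutant antheridium library was thus above every other library, and the lowest archegonium sums, of mutant library 3 and wild type library 2, were within the range of the wild type antheridia. The mean over the mutant antheridia was over 2 times the wild type mean in 55 of 60 genes and over 5 times in 14, with a median ratio of 3.20 and a range of 1.72 to 127. The lowest mutant library stood 1.78 times above the highest wild type library at the median, and at least 2 times above it in 18 genes. Most of the genes were detected in wild type as well, since 52 of the 60 had a count in each wild type antheridium library and 0 lacked counts in all of them.

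The 60 genes did not share 1 pattern across the organs, and in many of them mutant antheridia were not above the archegonia. The rule set no condition on mutant antheridia against archegonia. In 28 genes every mutant antheridium library was above all 6 archegonium libraries, against 6.41% of the 13564 genes that met the level conditions. In 29 the mutant antheridia overlapped the archegonia, against 84.5%, and in 3 every mutant antheridium library was below all archegonia, against 9.14%. In 14 genes, or 23.3%, every wild type antheridium library was below all 6 archegonium libraries, against 7.48% of the genes that met the conditions. In 41 genes the wild type antheridia overlapped the archegonia, against 85.1%. In 5 genes every wild type antheridium library was above all archegonia, against 7.43%. Since high mutant and low wild type antheridia chose the genes, these counts are a description. Without mutant antheridia 1 the 28 became 31, and without the 3 libraries with few detected genes 36, with 7 below all archegonia in place of 3. Under scaling by trimmed mean of M values (TMM) or by DESeq2 size factors it was 34. The counts under these other choices were not taken over the 13564 genes. Fewer libraries make non-overlap easier for any gene, but the 2 other scalings used all 12 libraries. Under each of them 25 genes overlapped the archegonia and 1 lay below them. The split into 28, 29 and 3 genes thus depends on the scaling too, and none of these shifts is read as a trait of the 60.

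**Figure D1:**
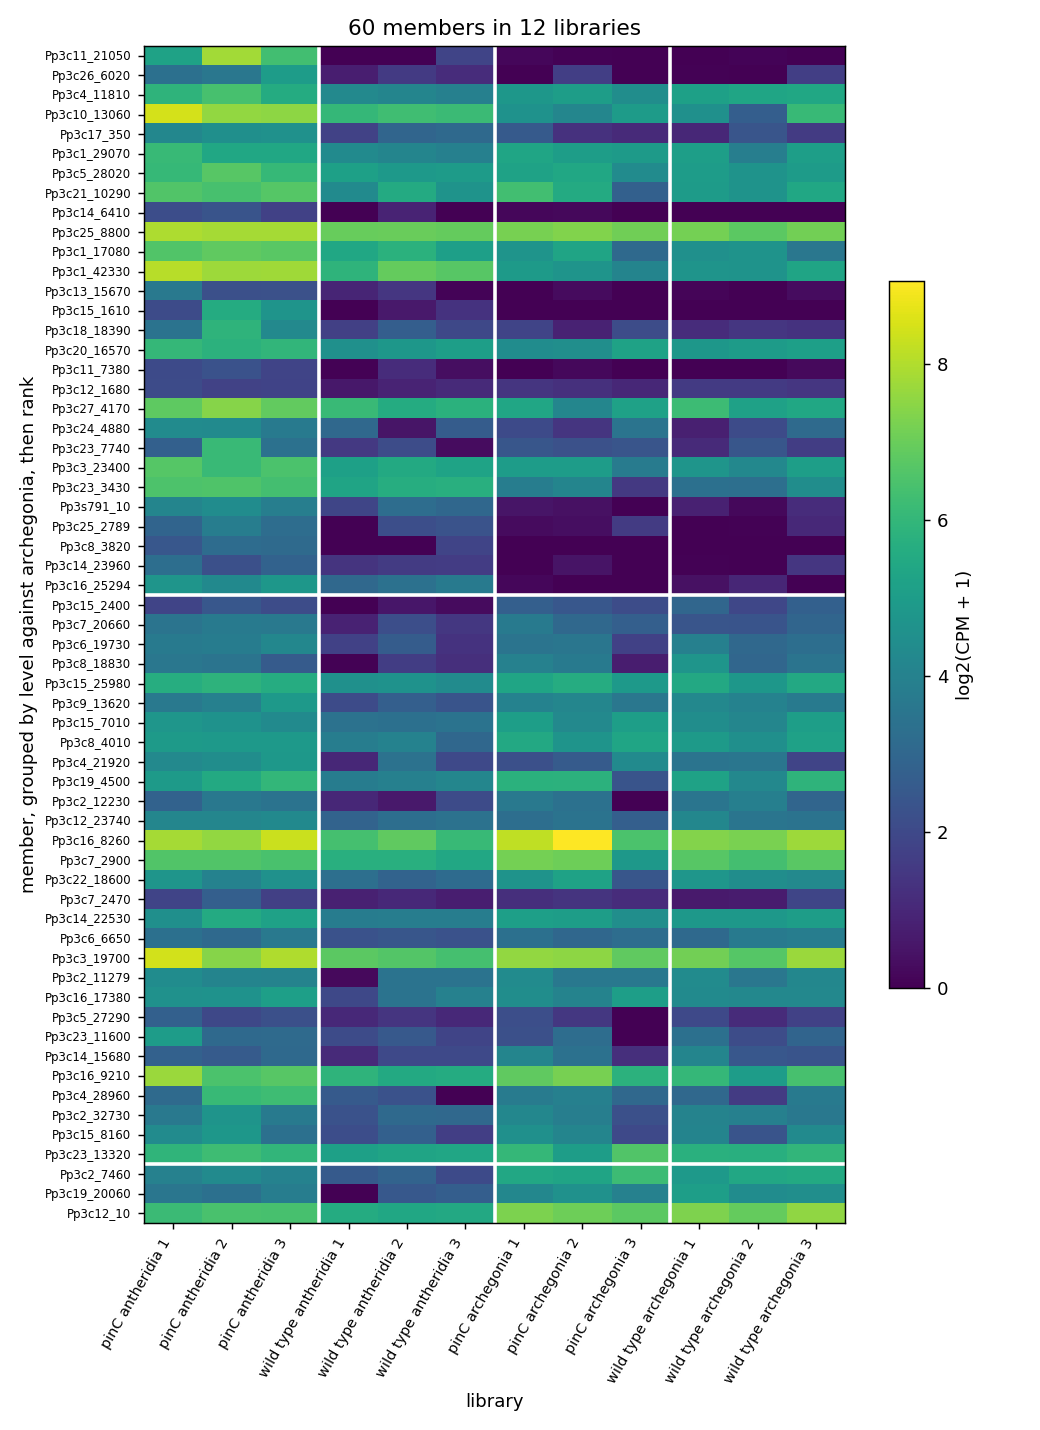
Level of each of the 60 genes (rows) in each of the 12 libraries (columns) as log2(CPM + 1), with white lines between the groups of libraries. Rows are grouped from top to bottom into the 28 genes above all archegonia, the 29 that overlap them and the 3 below them, and the wild type antheridium columns are darker than the mutant antheridium columns in every row.

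Pp3c11_21050 headed the ranking and was nearly absent outside mutant antheridia. It had 36.4, 225 and 78.0 CPM in mutant antheridia 1, 2 and 3, against 0, 0 and 2.67 CPM in wild type antheridia. In archegonia it had 2, 1 and 0 counts in the mutant and 0, 2 and 0 counts in wild type. All 3 mutant antheridia were above the other libraries by a wide margin, and 1 wild type library held all 70 wild type antheridium counts. The ratio of the means was 127, or 64.4 without mutant antheridia 2, the highest library.

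Pp3c26_6020, in second place, had 9.14, 11.1 and 31.6 CPM in mutant antheridia, against 0.685, 1.93 and 1.22 CPM in those of wild type. Its archegonia were at 0, 2.19 and 0 CPM in the mutant and at 0.0483, 0 and 2.20 CPM in wild type. Mutant antheridia stood above all other libraries, and the other groups overlapped. The ratio of the antheridium means was 13.5, or 7.91 without mutant antheridia 3.

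Pp3c4_11810 had both a higher mutant level and a low wild type level. It had 58.2, 84.5 and 46.9 CPM in mutant antheridia, against 18.1, 16.4 and 14.5 CPM in wild type antheridia. Mutant archegonia had 26.9, 32.1 and 20.7 CPM, and wild type archegonia 34.8, 38.9 and 41.5 CPM. It was the 1 gene of the 60 in which mutant antheridia lay above and wild type antheridia below every archegonium library. In wild type every archegonium library was thus above every antheridium library (edgeR adjusted p = 0.123). In the mutant every antheridium library was above every archegonium library (edgeR adjusted p = 0.0186). The DESeq2 Wald test gave adjusted p = 0.0214 in wild type and 9.89e-05 in the mutant. The authors' deposited DESeq2 values were adjusted p = 0.00109 in wild type and 0.0432 in the mutant.

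Pp3c15_2400 was a gene of low level that wild type antheridia nearly lacked. It had 60, 114 and 130 counts, or 2.62, 4.48 and 3.26 CPM, in mutant antheridia, against 0, 12 and 5 counts, or 0.218 ± 0.233 CPM (SD, n = 3, as for each such value of CPM), in wild type antheridia. It had 4.51 ± 1.17 CPM in mutant archegonia and 5.26 ± 2.16 CPM in wild type archegonia. Mutant antheridia thus overlapped the archegonia, and the wild type antheridia stood apart from the other 3 groups.

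Pp3c7_20660 was likewise lowest in wild type antheridia, with 11.4 ± 1.10 CPM in mutant and 2.04 ± 1.36 CPM in wild type antheridia (SD, n = 3 each), and 8.44 ± 3.38 CPM in mutant and 5.01 ± 1.49 CPM in wild type archegonia. Pp3c6_19730 had 12.5, 12.9 and 17.5 CPM in mutant antheridia, against 2.33, 5.25 and 1.52 CPM in wild type antheridia. Its archegonia were at 7.77 ± 4.66 CPM in the mutant, where library 3 had only 2.39 CPM, and at 10.1 ± 3.71 CPM in wild type. Wild type antheridia of Pp3c7_20660 lay below all archegonia, whereas those of Pp3c6_19730 overlapped mutant archegonia 3.

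Pp3c10_13060 was among the 4 genes with the most reads in mutant antheridia. It had 353, 193 and 183 CPM in mutant antheridia, against 64.5, 76.1 and 70.7 CPM in wild type antheridia, with no overlap. Mutant archegonia were at 23.6 ± 6.67 CPM and wild type archegonia at 31.9 ± 32.2 CPM, where a single library of 67.9 CPM reached the level of wild type antheridia. The mean was higher in antheridia than in archegonia in both genotypes, and in the mutant the log2 difference was 3.59 ± 0.68 (SE) with an edgeR adjusted p of 0.00633.

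Pp3c2_7460 showed the opposite order of organs. It had 14.96, 19.3 and 15.2 CPM in mutant antheridia, against 4.93, 6.37 and 3.12 CPM in wild type antheridia. Mutant archegonia had 42.5, 38.2 and 73.7 CPM and wild type archegonia 28.6, 42.6 and 44.4 CPM, all above the antheridia of either genotype.

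**Figure D2:**
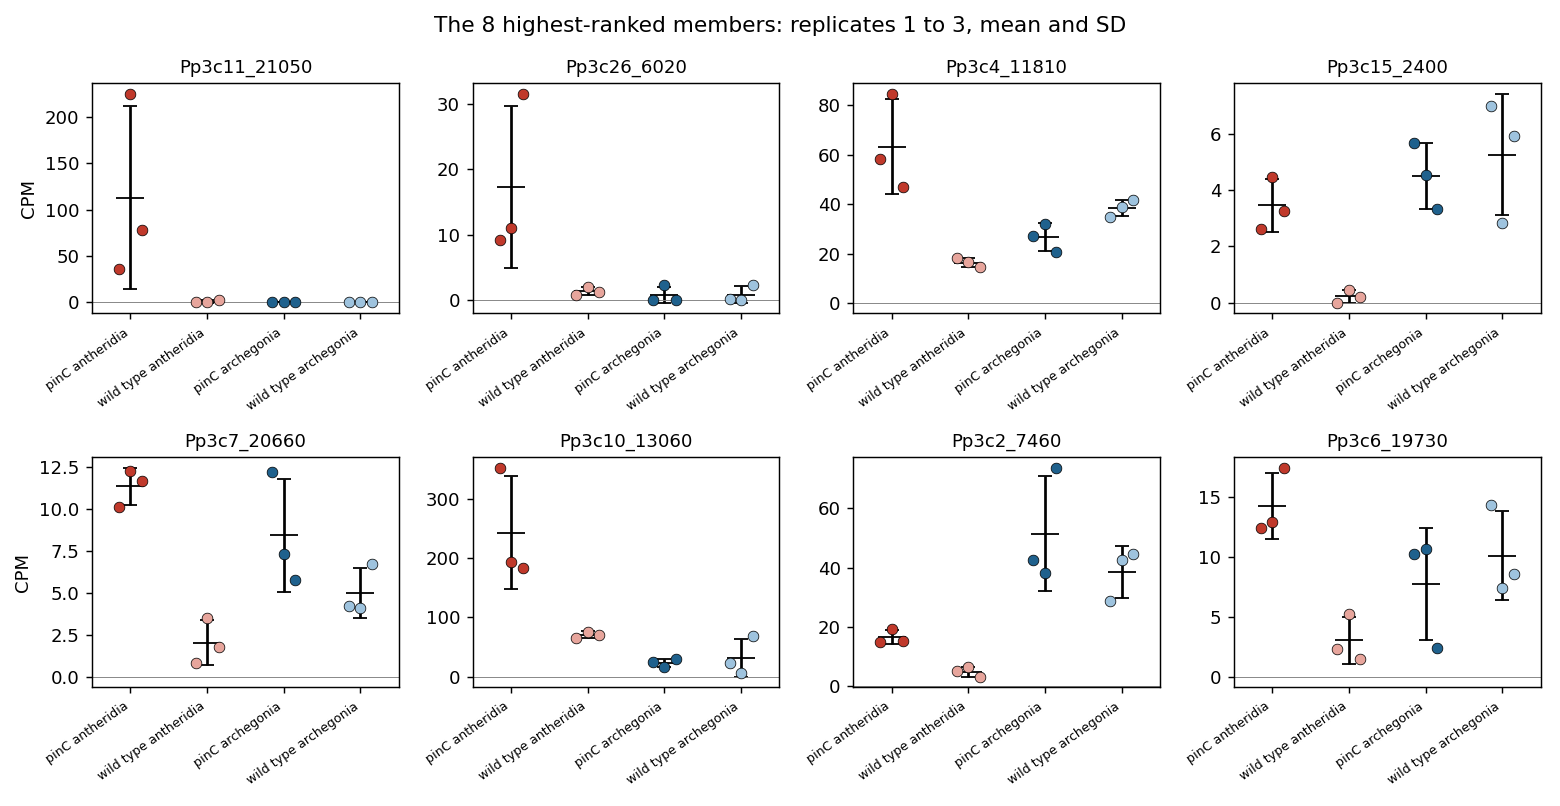
CPM of the 8 highest-ranked genes in the 3 libraries of each group (points, replicate 1 to 3 from left to right), with the mean and SD as black bars; each panel has its own linear axis. Mutant antheridia are above wild type antheridia in all panels, and archegonia are near 0 in Pp3c11_21050 but highest in Pp3c2_7460.

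The 28 genes above all archegonia had a median of 28.6 CPM in mutant antheridia, against 5.87 CPM in wild type antheridia, taking the mean over each group's libraries, with 3.31 CPM in mutant and 2.47 CPM in wild type archegonia. Besides Pp3c11_21050, the 4 of the 28 with the smallest edgeR adjusted p between the organs of the mutant were Pp3c1_42330, Pp3c16_25294, Pp3s791_10 and Pp3c27_4170. Pp3c1_42330 had 270, 211 and 220 CPM in mutant antheridia, against 57.8, 120 and 103 CPM in wild type antheridia, and 23.7 ± 7.11 CPM in mutant and 29.2 ± 8.20 CPM in wild type archegonia. Antheridia and archegonia did not overlap in either genotype, and the mutant antheridia exceeded the wild type ones by a ratio of 2.503.

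Pp3c16_25294 had 25.5, 18.9 and 26.9 CPM in mutant antheridia, against 7.40, 9.45 and 12.4 CPM in wild type antheridia. Its archegonia were at 0.0350 ± 0.0607 CPM in the mutant and 0.432 ± 0.486 CPM in wild type. Pp3s791_10, on a scaffold not placed on a chromosome, had 16.8 ± 3.45 CPM in mutant and 6.13 ± 2.99 CPM in wild type antheridia, and at most 1.20 CPM in any archegonium library. Both genes and Pp3c1_42330, together with Pp3c3_23400 and Pp3c23_3430, were those whose wild type antheridia also lay above all archegonia. Pp3c27_4170 had 112, 169 and 117 CPM in mutant antheridia, against 70.1, 46.5 and 54.4 CPM in wild type antheridia, and wild type archegonia, with 73.5, 35.3 and 41.0 CPM, overlapped the wild type antheridia.

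Among the 60 genes, 11 averaged under 1 CPM over the archegonia, and 2 had no count in any archegonium library. Pp3c15_1610 had 3.19, 46.3 and 24.8 CPM in mutant antheridia, against 0, 0.540 and 1.48 CPM in wild type antheridia. Against a floor of 3 counts over the 6 archegonium libraries together, even the lowest mutant antheridium library was at least 161-fold higher in this gene. Pp3c8_3820, named after its values were seen, had 4.51, 8.33 and 7.83 CPM in mutant antheridia, against 0, 0 and 2.59 CPM in wild type antheridia, and its lowest mutant antheridium library was at least 228-fold above the same floor. In each of these genes, at most 2 of the wild type antheridium libraries held a count. The genes with the fewest counts outside mutant antheridia were Pp3c14_6410 and Pp3c11_7380. Pp3c14_6410 had 78, 106 and 95 counts in mutant antheridia, against 0, 22 and 0 in wild type antheridia, with 2, 4 and 0 in mutant and 0 in all wild type archegonia. Pp3c11_7380 had 72, 99 and 106 counts in mutant antheridia, against 1, 32 and 7 in wild type antheridia, with 4 counts over mutant and 4 over wild type archegonia. In both genes wild type antheridia 2 held most of the wild type counts.

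The 3 genes below all archegonia were Pp3c2_7460, given above, Pp3c12_10 and Pp3c19_20060, the last 2 named after their values were seen. Pp3c12_10 had 71.0, 86.9 and 85.8 CPM in mutant antheridia, against 46.2, 41.2 and 43.7 CPM in wild type antheridia, and 131 ± 22.5 CPM in mutant and 154 ± 33.6 CPM in wild type archegonia. Pp3c19_20060 had 11.1 ± 2.05 CPM in mutant and 3.43 ± 3.01 CPM in wild type antheridia, and 18.3 ± 4.10 CPM in mutant and 24.7 ± 6.89 CPM in wild type archegonia. The mutant antheridia lay between the wild type antheridia and the archegonia in all 3 genes. Under TMM scaling 1 gene remained below all archegonia in every mutant antheridium library.

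**Figure D3:**
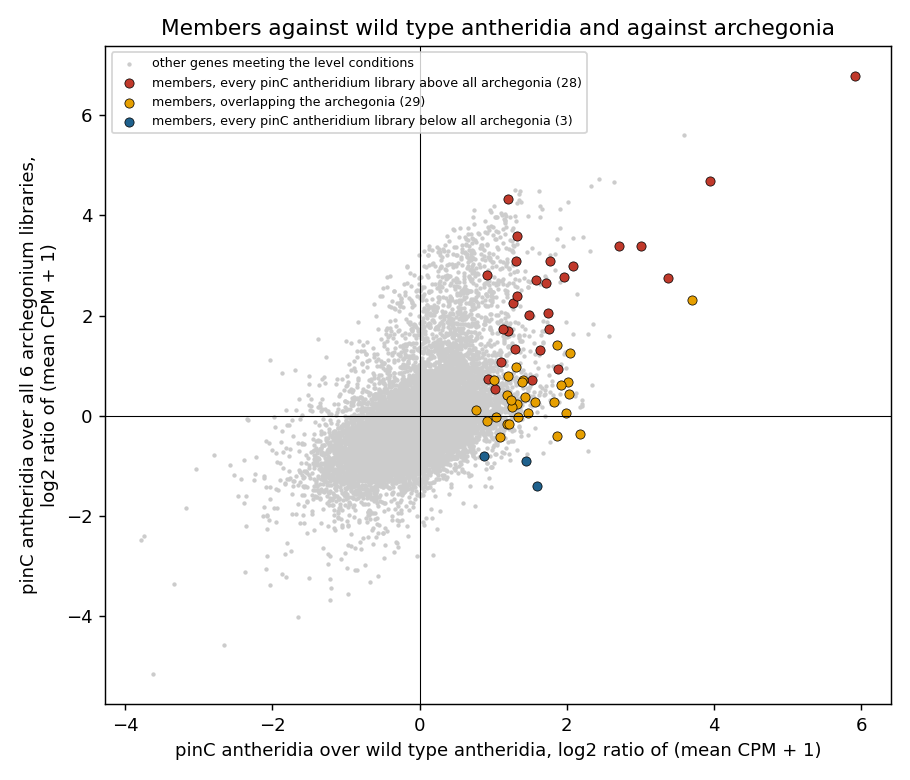
Log2 ratio of mean CPM + 1 of mutant over wild type antheridia (horizontal) and of mutant antheridia over all 6 archegonium libraries (vertical), for the 60 genes (coloured by their level against the archegonia) and the other genes that met the level conditions (grey). All 60 genes are right of 0 by choice, while vertically they spread from below 0 to over 6, with 28, 29 and 3 genes in the colour classes.

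In archegonia the genotypes were held close by the rule on the log2(CPM + 1) scale, and no gene of the 60 was called there. With edgeR's quasi-likelihood test and Benjamini-Hochberg adjustment over 22792 genes, 0 of the 60 passed an adjusted p of 0.05 for mutant against wild type archegonia, and 0 had an unadjusted p below 0.05. The background was 0% called higher and 0% lower, with 257 of the 22792 genes at an unadjusted p below 0.05. The DESeq2 Wald test also called 0 of the 60, against a background of 0.0146% higher and 0.0219% lower. It had 1 of the 60 at an unadjusted p below 0.05, against 394 over all genes. The authors' deposited table called 0 of the 45 genes that had an adjusted p in it, against 0.0443% higher and 0.0222% lower, and the other 15 could not be called there. The median log2 difference of the 60 was 0.02, against -0.03 over all genes tested, with 32 genes on the positive side. It ranged from -3.82 for Pp3c16_25294 to 4.08 for Pp3c14_6410. These 2 genes had at most 0.958 and 0.156 CPM in any archegonium library, and the scale of the rule hardly limits genes of such low level.

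Mutant archegonia 3 was often the low library. It was the lowest of the 6 archegonium libraries in 26 of the 60 genes (43.3%), against 36.5% of the genes that met the level conditions. It lay under 50% of both other mutant archegonium libraries in 20 of the 60, against 19.7% of those genes, and had 0 counts in 13. Pp3c19_4500, named after its values were seen, had 53.8, 56.0 and 4.17 CPM in mutant archegonia 1, 2 and 3, against 36.7, 17.6 and 57.8 CPM in wild type archegonia. Pp3c2_12230, likewise, had 223, 239 and 0 counts in mutant archegonia. A mean over mutant archegonia, which the rule uses, thus covers libraries that disagree for these genes. Without mutant archegonia 3, wild type antheridia were below all archegonia in 24 of the 60 genes in place of 14. Neither this count nor the 13 at 0 counts was taken over the other genes. Fewer libraries make non-overlap easier for any gene, so the rise is not read as a trait of the 60.

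Across the mutant antheridia themselves most of the 60 genes were even. The highest library was under 2 times the lowest in 42 of them, or 70.0%, against 34.4% of the genes that met the level conditions, a difference the rule favours because it ranks by the lowest library. Mutant antheridia 1, 2 and 3 were the highest library in 20, 25 and 15 genes, or 33.3%, 41.7% and 25.0%. Over the genes that met the level conditions these shares were 38.7%, 32.5% and 28.8%. The most even were Pp3c8_4010, with 29.97, 29.0 and 28.1 CPM in mutant antheridia against 13.4, 15.05 and 7.23 CPM in wild type antheridia, and Pp3c25_8800, with 247, 229.5 and 227 CPM against 124, 125.5 and 119 CPM. In Pp3c25_8800 both antheridium groups were tight, and the mutant level was 1.91 times the wild type level, with archegonia at 148 ± 12.9 CPM in the mutant and 131 ± 18.3 CPM in wild type. In Pp3c8_4010 the archegonia, at 36.0 ± 9.71 CPM in the mutant and 28.9 ± 6.98 CPM in wild type, were at the mutant antheridium level and wild type antheridia below.

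In 5 genes the highest mutant antheridium library was over 5 times the lowest, and in all 5 mutant antheridia 1 was the lowest. Besides Pp3c11_21050 and Pp3c15_1610, given above, they included Pp3c23_7740, the most uneven after Pp3c15_1610. Pp3c23_7740 had 5.91, 69.4 and 9.31 CPM in mutant antheridia, against 1.87, 3.36 and 0.228 CPM in wild type antheridia, and its ratio of 15.5 was 4.18 without mutant antheridia 2. Pp3c18_18390 and Pp3c4_28960, named after their values were seen, had ratios of 8.10 and 17.0, and of 3.91 and 12.8 without their highest mutant library. Pp3c4_28960 had 7.79, 67.8 and 74.8 CPM in mutant antheridia 1, 2 and 3, against 4.93, 3.90 and 0 CPM in wild type antheridia. Pp3c18_18390 had 10.02, 59.1 and 18.1 CPM in mutant antheridia, against 2.28, 5.60 and 2.89 CPM in wild type antheridia. The low library of these genes was also the one with candidate counts in the range of wild type antheridia. It had the lowest sum of the antheridium list as well, 5233 CPM. Mutant antheridia 2 and 3, however, were the ones with few detected genes, 19088 and 20359 against 23977 in mutant antheridia 1. Neither the 5 uneven genes nor their shared lowest library was counted over all genes that met the level conditions. They are thus not read as a trait of the 60 or of that library. The part of the candidate counts, the list sum or the detected genes in the unevenness was not tested.

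The remaining genes with the most reads were Pp3c3_19700 and Pp3c16_8260. Pp3c3_19700 had 345, 171 and 255 CPM in mutant antheridia, against 108, 99.2 and 82.3 CPM in wild type antheridia, with 164 ± 43.7 CPM in mutant and 149 ± 52.5 CPM in wild type archegonia. Pp3c16_8260 had 228, 192.5 and 326 CPM in mutant antheridia, against 82.9, 115 and 68.6 CPM in wild type antheridia. Mutant archegonia ranged from 89.9 to 534 CPM in this gene and wild type archegonia from 149 to 214 CPM. Both genes had archegonium libraries inside the range of the mutant antheridia. CPM is not per transcript length, so these levels are compared between libraries and not between genes.

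The test across all genes called few genes between the antheridia. In edgeR 0 of the 60 passed the adjusted p of 0.05, with 52 at an unadjusted p below 0.05. Of all 22792 genes 1913 had an unadjusted p below 0.05, and 0% were called higher in the mutant and 0.0132% lower. The smallest edgeR adjusted p of the 60 was 0.233, for Pp3c4_11810, at a log2 fold change of 2.12 ± 0.36 (SE). Pp3c11_21050 had 7.11 ± 1.30 (SE) with an edgeR adjusted p of 0.298. The DESeq2 Wald test called 23 of the 60 higher, against a background of 0.282% higher and 0.628% lower of 26285 genes, among them Pp3c4_11810 (adjusted p = 8.61e-08), Pp3c25_8800 (1.37e-05) and Pp3c15_2400 (4.48e-05). In the authors' deposited table for this comparison 4 of the 60 were called higher, of 5 genes in all or 0.0238%, with 0.0476% lower. In the authors' deposited table they were Pp3c4_11810, Pp3c10_13060, Pp3c26_6020 and Pp3c1_29070, with log2 fold changes of 1.84, 1.71, 2.62 and 1.54. These genes were chosen on this difference, so the counts carry no evidence of their own. All 60 passed the filter on low counts, the median log2 fold change was 1.81, against 0.05 over all genes tested, and the range was 0.94 to 7.11. With library totals in place of TMM scaling the median was 1.67, against -0.10 over all genes. Without mutant antheridia 1 edgeR called 2 of the 60 higher, against 0.0386% higher and 0.644% lower of 23304 genes in that fit. They were Pp3c11_21050 (edgeR adjusted p = 0.0325) and Pp3c4_11810 (edgeR adjusted p = 0.0347).

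Between the organs of the mutant, a contrast that shares the mutant antheridia with the rule, edgeR called 20 of the 60 higher in antheridia and 0 lower, against a background of 6.74% higher and 1.33% lower. The log2 fold change was 3.55 ± 0.41 (SE; edgeR adjusted p = 0.000232) for Pp3c1_42330 and 9.79 ± 1.30 (SE; edgeR adjusted p = 0.000604) for Pp3c16_25294. From the mutant libraries alone edgeR called 7 of the 60, all higher, against 2.55% higher and 0.17% lower in that fit. The DESeq2 Wald test called 23 higher and 1 lower, against a background of 9.31% higher and 3.07% lower. The authors' deposited table called 21 of the 60, all higher in antheridia, against 6.26% of its genes higher and 1.3% lower.

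The contrast between the organs of wild type shares the wild type antheridia with the rule, which favours genes that are low there, so its counts are a description. In it edgeR called 2 of the 60 higher in antheridia, against a background of 2.56%, and 3 lower, against 0.39%. The higher ones were Pp3c1_42330, at 1.79 ± 0.38 (SE; edgeR adjusted p = 0.0231), and Pp3c16_25294, at 4.54 ± 0.90 (SE; edgeR adjusted p = 0.0155). The lower ones were Pp3c2_7460, at -2.90 ± 0.44 (SE; edgeR adjusted p = 0.00307), Pp3c12_10, at -1.71 ± 0.32 (SE; edgeR adjusted p = 0.0111), and Pp3c15_2400, at -4.38 ± 0.97 (SE; edgeR adjusted p = 0.0209). From the wild type libraries alone edgeR called 3 higher and 7 lower, of 54 tested, against 5.56% higher and 2.1% lower. With single libraries left out it called 1 to 7 of the 60 in place of 5. It called 2 without wild type antheridia 2, 1 without wild type antheridia 3 and 1 without wild type archegonia 1, where 397, 289 and 211 genes were called in all, and 7 without mutant archegonia 3, with 842 in all. The DESeq2 Wald test called 4 higher and 9 lower, against a background of 4.45% higher and 1.34% lower. The authors' deposited table called 5 higher and 13 lower of the 58 with an adjusted p, against 8.74% higher and 4.17% lower. The mean over all archegonia was above the wild type antheridium mean in 40 of the 60 genes, and above the mutant antheridium mean in 11.

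The interaction, which sets the mutant minus wild type difference of the antheridia against that of the archegonia, passed the threshold for 0 of the 60 in edgeR. The background was 0% in each direction. An unadjusted p below 0.05 was reached by 25 of the 60, against 961 of all 22792 genes. Pp3c4_11810 had the smallest edgeR adjusted p, 0.811, at 2.62 ± 0.49 (SE). The DESeq2 Wald test called 3 of the 60, Pp3c4_11810, Pp3c15_2400 and Pp3c6_6650, against a background of 0.0585% positive and 0.165% negative. Pp3c6_6650, named after its values were seen, had 9.49 ± 2.03 CPM in mutant and 4.10 ± 0.296 CPM in wild type antheridia, and 8.24 ± 1.04 CPM in mutant and 11.1 ± 3.06 CPM in wild type archegonia. Both contrasts were part of the rule.

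The list has no natural edge. The gene in place 60, Pp3c23_13320, had 59.8, 74.4 and 61.6 CPM in mutant antheridia, against 34.9, 38.6 and 40.5 CPM in wild type antheridia, a ranking value of 0.553. The next gene, Pp3c9_17900, had 13.2, 15.1 and 11.498 CPM in mutant antheridia, against 2.88, 7.52 and 4.23 CPM in wild type antheridia, a ranking value of 0.552. Of the 13564 genes that met the level conditions, 548, or 4.04%, had every mutant antheridium library above every wild type one, and 1063, or 7.84%, had every mutant library below. Leaving out 1 mutant antheridium library and ranking again kept 20, 9 and 15 of the 60 among the first 60, for replicates 1, 2 and 3. Leaving out 1 wild type antheridium library kept 32, 25 and 32, and leaving out 1 archegonium library 56 to 59. With fewer antheridium libraries to clear, more genes can enter, and 869 to 1697 genes then had antheridium groups that did not overlap.

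**Figure D4:**
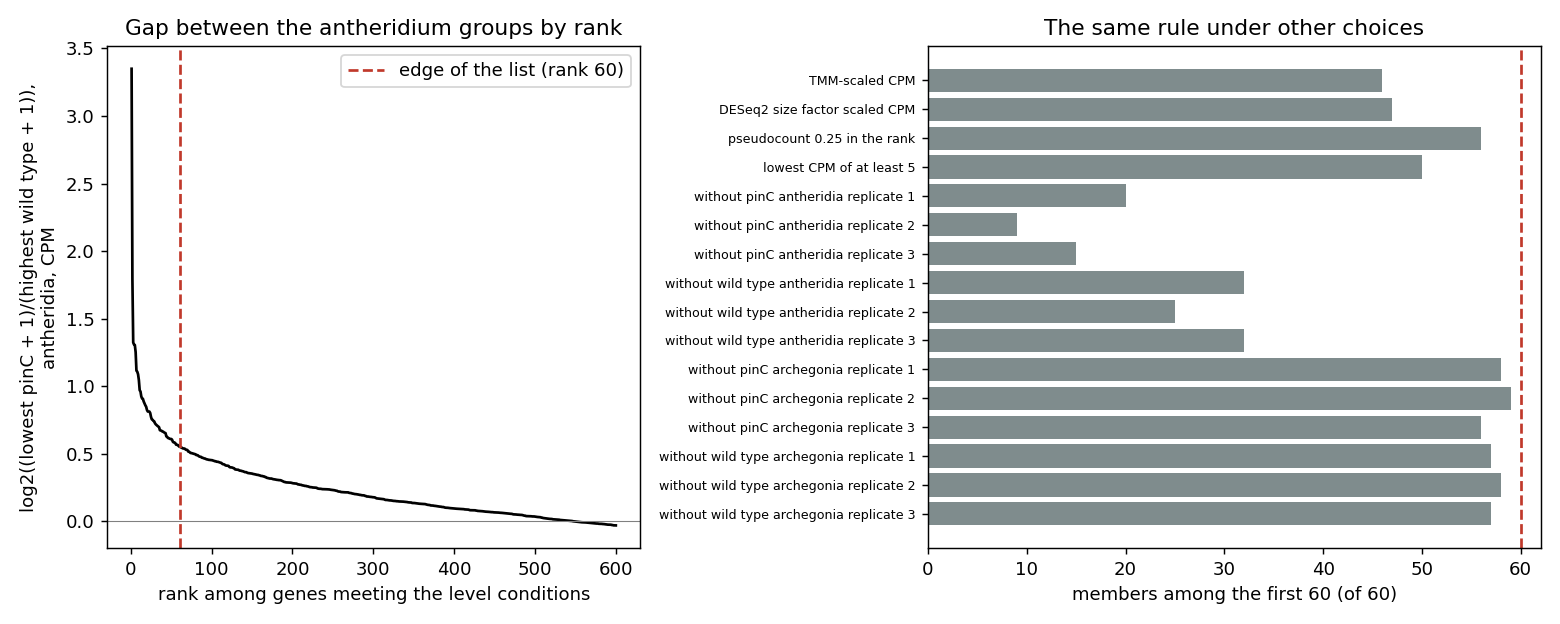
Left, the ranking value by rank for the first 600 genes that met the level conditions, with the edge of the list dashed; right, how many of the 60 genes were again among the first 60 under other scalings, limits and with single libraries left out (bars, from 0). The curve falls steeply over the first genes and passes the edge at 0.553 without a step, and the bars are shortest, at 9 to 20, where a mutant antheridium library is left out.

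By the chromosome number in their identifiers the 60 genes were spread over all 27 chromosomes, with at most 5 on one chromosome and 1 on an unplaced scaffold. No 2 of them were neighbours in identifier order, and 0 had another of the 60 within 2 intervening genes. The genes next to them on either side numbered 117, of which 83 averaged at least 1 CPM over the antheridia. In 3 of these 83, or 3.61%, every mutant antheridium library was above every wild type one, against 3.10% of the 20567 genes at that level. Their median log2 ratio of mutant to wild type antheridia was 0.04, against -0.08 over those genes, both on the log2(CPM + 1) scale.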

How the data were processed

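RNA was picked into TRIzol, purified with a Direct-zol kit and made into cDNA by Smart-seq2, per the labels' protocols; that method marks no strand and carries no molecular identifiers. The authors deposited whole-number read counts per gene and their own DESeq2 tables, which hold log2 fold changes with raw and adjusted p-values. Trim Galore 0.6.6, cutadapt 2.10, HISAT2 2.1.0 and DESeq2 2.11.40.6 are named in the submitters' processing notes. The genome build and the counting settings were not given in the sources used here. Reads of overlapping genes or near-identical copies may be shared between genes.

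Groups came from the sample titles. CPM used column sums. The test was edgeR 4.0.16 in R 4.3.3 (quasi-likelihood F test, TMM, filterByExpr, robust, legacy off) with 1 fit of 4 group means over 12 libraries, Benjamini-Hochberg adjusted, called under 0.05. It was tested on simulated data. DESeq2 1.42.0 was an alternative. Standard errors are the absolute log2 fold change over the square root of F. No replicate pair agreed within sampling noise. The 60 genes, the lists and the naming rule were chosen with earlier results of these data known. Named were the 8 first in rank, the 4 with the highest mutant antheridium mean, the 2 with the fewest counts elsewhere, the 2 most and 2 least even in mutant antheridia, the edge of the list and up to 6 with the smallest adjusted p in any contrast. Lists by product could not be formed without descriptions.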

Additional observations from a re-analysis of the deposited data

How the results depend on the processing

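All named genes kept a positive difference between mutant and wild type antheridia in every alternative fitted. The rule chose them on that difference, which largely fixed its sign in advance, so nothing is read from this. The count of all genes called there was 3 in edgeR, 239 in the DESeq2 Wald test, 0 from the 6 antheridium libraries alone, 1 with the replicate block, and 0 to 159 with single libraries left out, 159 being without mutant antheridia 1 (9 higher, 150 lower). Of the 60 genes it was 0 in edgeR, 23 in the DESeq2 Wald test, and 0 to 2 with single libraries left out. The median log2 fold change of the 60 was 1.81, 1.67 with library totals alone, and 1.64 to 1.88 with single libraries left out. Between the organs of the mutant 20 of the 60 were called, 7 from the mutant libraries alone, 18 with the replicate block, and 12 to 22 with single libraries left out, 12 without mutant archegonia 1 and 13 without mutant archegonia 3. Over all genes 1841 were called there, 575 from the mutant libraries alone and 1209 with the replicate block. With single libraries left out it was 843 to 2223, with 843 without mutant archegonia 1 and 1096 without mutant archegonia 3. The calls thus fell over all genes as well. The interaction called 0 of the 60 and 3 in the DESeq2 Wald test; it was not fitted from 2 groups. Ranking again with 1 library left out kept 9 to 59 of the 60, TMM scaling 46, DESeq2 size factors 47, a pseudocount of 0.25 56 and a minimum of 5 CPM 50. The cause of these shifts was not tested. Same-numbered mutant and wild type antheridia had correlations of deviations across genes of 0.02, -0.17 and 0.03, so no pairing was seen there. Same-numbered wild type antheridia and archegonia had 0.14, 0.02 and 0.23, against -0.25 to 0.10 between other numbers. Same-numbered mutant and wild type archegonia had 0.23, -0.46 and -0.22. Whether the numbers pair samples elsewhere is thus not settled. The replicate block could remove no call of the 60 between the antheridia, since 0 were called without it, and it added 0. The counts against archegonia under other scalings or without libraries were added after seeing the data.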
